A study of Homo sapiens with 8 samples.

Results

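The 10 immediate early genes FOS, FOSB, FOSL1, JUN, JUNB, EGR1, IER2, IER3, MYC and KLF6 were taken by symbol from the 27317 symbols in the deposited count tables, and all 10 passed the filter on low counts. Immediate early genes are genes whose transcripts appear within minutes of a signal, without new protein synthesis. Growth factors and stress act on them mostly through the ERK and p38 kinases, which activate serum response factor (SRF) with its ternary complex partners, and CREB. Their products include the AP-1 subunits of the FOS and JUN families, which pair through leucine zippers to bind DNA, and the transcription factors EGR1, MYC and KLF6. The transcripts are short-lived and also react to handling, such as medium change or detachment of cells.

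The cells were MEL1, a single human embryonic stem cell (ESC) line. DMSO controls received the solvent alone, and TCDD cultures received 2 nM of the dioxin TCDD, an agonist of the aryl hydrocarbon receptor (AHR), in the same solvent at the ESC stage. D1 libraries came from cells just before differentiation, without the GSK3 inhibitor, and D2 libraries from cells after 2 days in a cardiac differentiation medium with 5 µM of the GSK3 inhibitor CHIR99021, which activates Wnt signalling. Each of the 4 groups had 2 libraries, and the labels do not say whether these came from separate cultures, so the tests rest on a spread between libraries that may be only technical. The sources used here do not give the length of the exposure or the time between the last medium change and collection.

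Libraries held 34873055 to 43770420 counts. Levels are in CPM, the counts of a gene scaled to a common library size, with library totals corrected by TMM factors. A gene was called changed at a Benjamini-Hochberg adjusted p below 0.05 in edgeR's quasi-likelihood F test over 17268 genes. All 7 stem cell markers checked were counted in every group, with a summed level of 6174 to 6686 CPM at D1 and 5005 to 5439 CPM at D2. Single markers went both ways from D1 to D2: 1 rose and 4 fell with DMSO, and 4 rose and 3 fell with TCDD. The 6 streak and mesoderm markers summed to 8.62 to 10.3 CPM at D1, and at D2 to 574 to 613 CPM with DMSO and 276 to 311 CPM with TCDD. With each treatment 5 of the 6 rose, while TBX6 was not called with DMSO and fell with TCDD. The 3 endoderm markers summed to 0.496 to 2.21 CPM at D1, and at D2 to 34.5 to 39.2 CPM with DMSO and 18.9 to 20.5 CPM with TCDD. CER1 made up most of this at D2 (means of 31.1 and 14.6 CPM), and SOX17 had at most 1 count in any library. The 5 trophoblast and amnion markers summed to 36.3 to 42.1 CPM at D1 and 18.3 to 22.2 CPM at D2, with no count of CGA. Neural markers summed to at most 2.21 CPM and blood and endothelial markers to at most 0.94 CPM in any library. Of the 5 fibroblast markers COL1A1 made up nearly all of the summed 129.5 to 385 CPM, while LUM had no count in any library. AHR response genes were listed to check the exposure, with earlier results of these data known. They summed to 38.0 to 40.6 CPM with DMSO and 825 to 844 CPM with TCDD at D1, and to 61.1 to 65.6 CPM and 282 to 299 CPM at D2. LRAT made up most of the sums with TCDD, with means of 631 CPM at D1 and 218 CPM at D2. All 5 were called higher with TCDD at D1, and 4 of 5 at D2. AHRR averaged 1.34 CPM with TCDD and 1.19 CPM with DMSO at D2.

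Promoter sequences are shown for 3 members: FOS and FOSB, AP-1 paralogs with a like promoter layout that changed in opposite directions between D1 and D2, and EGR1, the member that differed most between libraries of a group. They run 5′ to 3′ from 250 bases before to 50 bases after the start site, from RefSeq on GRCh38.p14 (the counts were made on hg19), at chr14:75278578-75278877 for FOS, chr19:45467746-45468045 for FOSB and chr5:138465229-138465528 for EGR1, all on the plus strand. Capitals mark the TATA element TATAAA, the core TGACG of the CREB and ATF site, the core GCGTG of the AHR site and the CArG box bound by SRF. All were searched on both strands. On the minus strand the CREB core reads CGTCA in these lines and the AHR core reads CACGC.
FOS: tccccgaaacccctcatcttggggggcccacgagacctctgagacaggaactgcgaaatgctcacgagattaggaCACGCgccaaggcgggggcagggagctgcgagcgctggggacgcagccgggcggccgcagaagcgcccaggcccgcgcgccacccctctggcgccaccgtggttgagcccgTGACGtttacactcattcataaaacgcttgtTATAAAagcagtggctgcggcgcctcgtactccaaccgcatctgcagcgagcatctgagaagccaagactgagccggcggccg
FOSB: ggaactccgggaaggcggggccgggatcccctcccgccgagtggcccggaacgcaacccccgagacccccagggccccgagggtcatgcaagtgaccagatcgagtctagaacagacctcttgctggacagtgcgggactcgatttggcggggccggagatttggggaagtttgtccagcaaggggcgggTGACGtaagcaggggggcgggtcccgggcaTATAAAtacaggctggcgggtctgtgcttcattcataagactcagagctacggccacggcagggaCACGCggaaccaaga
EGR1: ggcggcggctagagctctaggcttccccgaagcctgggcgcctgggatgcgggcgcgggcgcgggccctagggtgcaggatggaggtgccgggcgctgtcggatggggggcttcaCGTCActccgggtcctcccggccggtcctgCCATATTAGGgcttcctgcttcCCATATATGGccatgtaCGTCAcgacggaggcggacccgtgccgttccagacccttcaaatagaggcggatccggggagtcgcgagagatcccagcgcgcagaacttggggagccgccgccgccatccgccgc

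In FOS, TATAAA began at -33 and TGACG at -64 from the start site, and in FOSB at -30 and -60. Each of the pair held 1 GCGTG on the minus strand, at -175 in FOS and at 36 in FOSB. EGR1 held 2 CArG boxes, at -105 and -83, and TGACG at -135 and -66 on the minus strand, and neither TATAAA nor GCGTG. None of the matches in these 3 windows overlapped. Of the 10 members, 7 were in the promoter table (FOSL1, IER3 and MYC were not). Of these 7, 6 held the CREB core, 6 the AHR core, 3 the TATA element and 1, EGR1, a CArG box. Among all 35116 promoters of the same length, 24.6% held the CREB core, 36.5% the AHR core, 11.5% the TATA element and 1.29% a CArG box. The EGR1 site GCGNGGGCG was in 2 of the 7, EGR1 and KLF6, and in 9.43% of all promoters. The AP-1 site TGANTCA, the full CREB site TGACGTCA, the TCF and LEF site CTTTGAT and the ETS site CCGGAAGT were in 0 of the 7, and in 7.71%, 1.85%, 2.62% and 4.14% of all promoters. A match is a description of the letters and not a test of binding. Bases outside the window were not searched, so a gene without a match, such as FOS for the CArG box, may hold a site further away.

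Between D1 and D2 with DMSO, all 10 members changed, 5 higher (FOS, FOSL1, JUNB, IER3 and KLF6) and 5 lower (FOSB, JUN, EGR1, IER2 and MYC). In this comparison 63.2% of all genes tested were called, 32.5% higher and 30.7% lower, so a high count of calls is the background here. The libraries of the 2 times did not overlap for 82.5% of all genes, 42% higher and 40.4% lower, nor for any of the 10 members. The median absolute log2 fold change of the members was 0.74, against 0.32 over all genes tested. Time in culture, the medium and its GSK3 inhibitor cannot be told apart in this comparison, and in bulk RNA fewer cells of a type and less RNA per cell cannot be told apart.

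**Figure D1:**
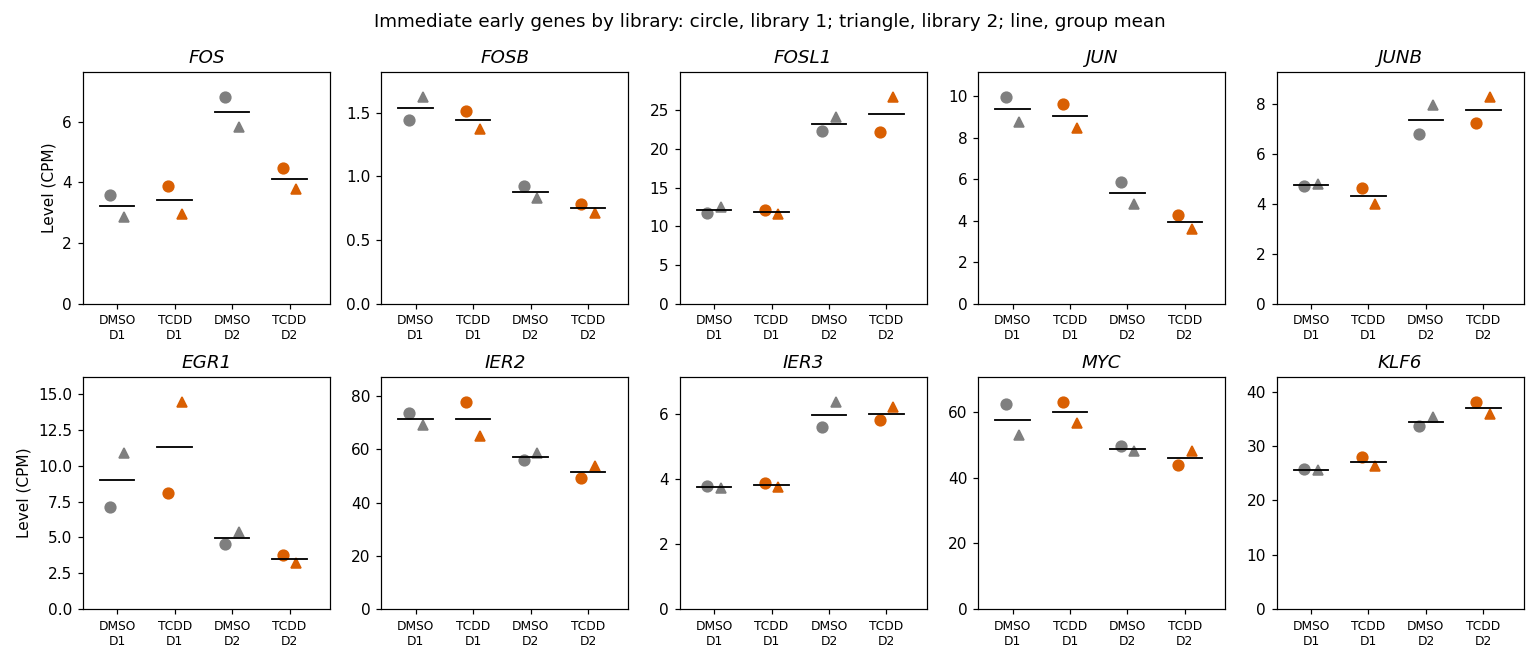
Level of each of the 10 immediate early genes in CPM (vertical axis from 0) in the 8 libraries, by treatment and time; circles are library 1, triangles library 2 and lines the mean of a group. FOS was lower with TCDD than with DMSO at D2 (3.77 and 4.46 against 5.82 and 6.83 CPM), and the 2 libraries of EGR1 lay far apart at D1.

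FOS, the prototype AP-1 subunit, stood at 3.57 and 2.85 CPM with DMSO and 3.87 and 2.95 CPM with TCDD at D1, and at 6.83 and 5.82 CPM with DMSO and 4.46 and 3.77 CPM with TCDD at D2. Only the DMSO libraries of D2 stood clear of the other 3 groups, which overlapped with their neighbours in the order DMSO at D1, TCDD at D1, TCDD at D2. With DMSO, FOS rose 1.96-fold from D1 to D2 (log2 fold change 0.97 ± 0.15, SE, edgeR adjusted p = 1.998e-05). With TCDD the same change was 0.27 ± 0.16 and was not called (edgeR adjusted p = 0.1497), although it was called without TCDD replicate 1 of D1 (0.49, edgeR adjusted p = 0.03737).

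FOSB, which forms AP-1 dimers like FOS, went the other way. Its CPM were 1.45 and 1.63 with DMSO and 1.52 and 1.38 with TCDD at D1, and 0.928 and 0.827 with DMSO and 0.783 and 0.715 with TCDD at D2, from only 26 to 65 counts a library. The D1 groups overlapped, and every D2 library was below every D1 library. The log2 fold change from D1 to D2 was -0.81 ± 0.21 with DMSO (edgeR adjusted p = 0.0028) and -0.95 ± 0.22 with TCDD (edgeR adjusted p = 0.00105).

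FOSL1 encodes FRA1, a FOS family subunit that lacks the transactivation domain of FOS. It stood at 11.7 and 12.4 CPM with DMSO and 12.2 and 11.6 CPM with TCDD at D1, and at 22.3 and 24.1 CPM and 22.2 and 26.7 CPM at D2. Treatments overlapped at both times and the times did not. FOSL1 rose 1.92-fold with DMSO (log2 fold change 0.94 ± 0.09, edgeR adjusted p = 3.759e-08) and 2.05-fold with TCDD.

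JUN and JUNB encode AP-1 subunits that pair with FOS proteins, JUNB being the weaker activator of the pair. JUN fell from 9.96 and 8.77 CPM to 5.84 and 4.82 CPM with DMSO, and from 9.64 and 8.45 CPM to 4.25 and 3.60 CPM with TCDD. JUNB rose from 4.72 and 4.80 CPM to 6.83 and 7.96 CPM with DMSO, and from 4.64 and 3.99 CPM to 7.26 and 8.31 CPM with TCDD. The paralogs moved apart in opposite directions. The ratio of JUNB to JUN raw counts, which depends on the lengths of the genes but on no library scaling, was 0.472 to 0.548 in the 4 D1 libraries, 1.17 and 1.65 with DMSO at D2 and 1.71 and 2.31 with TCDD at D2. The D1 to D2 log2 fold changes with DMSO were -0.82 ± 0.12 for JUN (edgeR adjusted p = 1.05e-05) and 0.64 ± 0.12 for JUNB (edgeR adjusted p = 0.0001452). With TCDD they were -1.20 ± 0.13 and 0.84 ± 0.12.

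Per kilobase of exon (the merged exons of GENCODE 29 transcripts, so an approximation of the authors' gene model), FOSL1 was the most abundant FOS family transcript, with 6.57 ± 0.265 CPM per kb in DMSO at D1 and 12.6 ± 0.685 at D2 (SD, n = 2 each). FOS followed with 1.09 ± 0.175 and 2.15 ± 0.243 CPM per kb, and FOSB was lowest at D2 with 0.158 ± 0.0128. FOSL2, the remaining FOS family gene, rose from 0.346 ± 0.0443 to 1.19 ± 0.107 CPM per kb (log2 fold change 1.79 ± 0.15, edgeR adjusted p = 1.115e-08). JUND, a JUN family gene known for steady expression, was the most abundant of the 7 in all 4 groups, with group means of 26.5 to 31.3 CPM per kb. JUN and JUNB were level at D1 with DMSO, at 2.65 ± 0.239 and 2.62 ± 0.0342 CPM per kb.

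**Figure D2:**
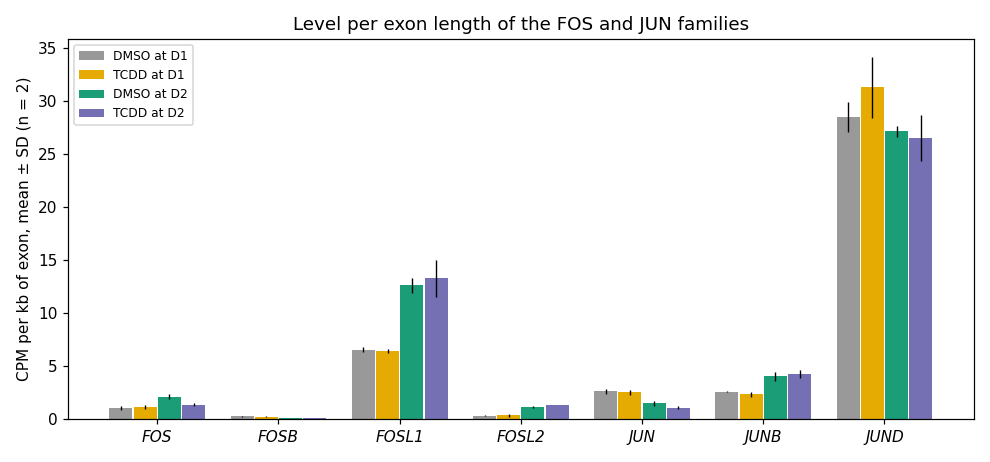
Level of the 4 FOS family and 3 JUN family transcripts in CPM per kilobase of merged exon (vertical axis from 0), as mean ± SD of 2 libraries for each group. JUND and FOSL1 were the most abundant of the families, and JUN and JUNB, level at D1 with DMSO (2.65 and 2.62), stood at 1.51 and 4.06 at D2.

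EGR1, a zinc finger factor bound to GC-rich sites, had the widest spread. It stood at 7.15 and 10.9 CPM with DMSO and 8.12 and 14.5 CPM with TCDD at D1, and at 4.53 and 5.40 CPM with DMSO and 3.75 and 3.25 CPM with TCDD at D2. The D1 groups overlapped, and all D2 libraries were below all D1 libraries, with the TCDD pair lowest. With DMSO, the log2 fold change from D1 to D2 was -0.85 ± 0.22 (edgeR adjusted p = 0.00264). The call was lost with edgeR's robust shrinkage (adjusted p = 0.1244) and without DMSO replicate 2 of D1 (-0.52, edgeR adjusted p = 0.09028), and over all alternatives the adjusted p ran from 3.271e-14 to 0.1244. With TCDD the log2 fold change was -1.67 ± 0.23 (edgeR adjusted p = 4.503e-06).

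IER2, a short-lived nuclear protein, fell from 73.8 and 69.1 CPM to 56.0 and 58.4 CPM with DMSO and from 77.8 and 64.9 CPM to 49.1 and 53.6 CPM with TCDD. Its log2 fold change with DMSO was -0.32 ± 0.07 (edgeR adjusted p = 0.0006481). IER3, a regulator of cell survival, rose from 3.80 and 3.74 CPM to 5.60 and 6.38 CPM with DMSO and from 3.90 and 3.77 CPM to 5.82 and 6.22 CPM with TCDD. Treatments overlapped at each time for IER3, and at D1 for IER2. The log2 fold change of IER3 with DMSO was 0.67 ± 0.12 (edgeR adjusted p = 7.766e-05).

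MYC, a driver of growth and of ribosome synthesis that is also used in reprogramming to pluripotency, had the smallest change of the 10 with DMSO. It stood at 62.4 and 53.0 CPM with DMSO and 63.1 and 56.8 CPM with TCDD at D1, and at 49.6 and 48.2 CPM and 43.8 and 48.2 CPM at D2. Treatments overlapped at both times. With DMSO its log2 fold change was -0.24 ± 0.07 (edgeR adjusted p = 0.007184), and the call was lost without DMSO replicate 1 of D1 (-0.11, edgeR adjusted p = 0.2169) or DMSO replicate 2 of D2 (-0.22, edgeR adjusted p = 0.06223). With TCDD it was -0.39 ± 0.07.

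KLF6, a zinc finger factor of the Krüppel-like family, had the smallest mean spread between libraries of a group among the 10, with 25.8 and 25.6 CPM with DMSO and 27.9 and 26.4 CPM with TCDD at D1, and 33.6 and 35.4 CPM and 38.1 and 36.0 CPM at D2. No neighbouring groups overlapped, in the order DMSO at D1, TCDD at D1, DMSO at D2, TCDD at D2. From D1 to D2 it rose 1.34-fold with DMSO (log2 fold change 0.43 ± 0.06, edgeR adjusted p = 7.837e-06) and 1.37-fold with TCDD.

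With TCDD, 9 of the 10 members changed from D1 to D2, 4 higher and 5 lower, against 65.3% of all genes, 33.1% higher and 32.2% lower. FOS was the member not called, and its libraries overlapped between the times. Across all genes 81.4% had no overlap, 40.6% higher and 40.8% lower. Whether a gene changed differently from D1 to D2 under the 2 treatments is the same test as whether TCDD acted differently at the 2 times, given after the TCDD results.

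**Figure D3:**
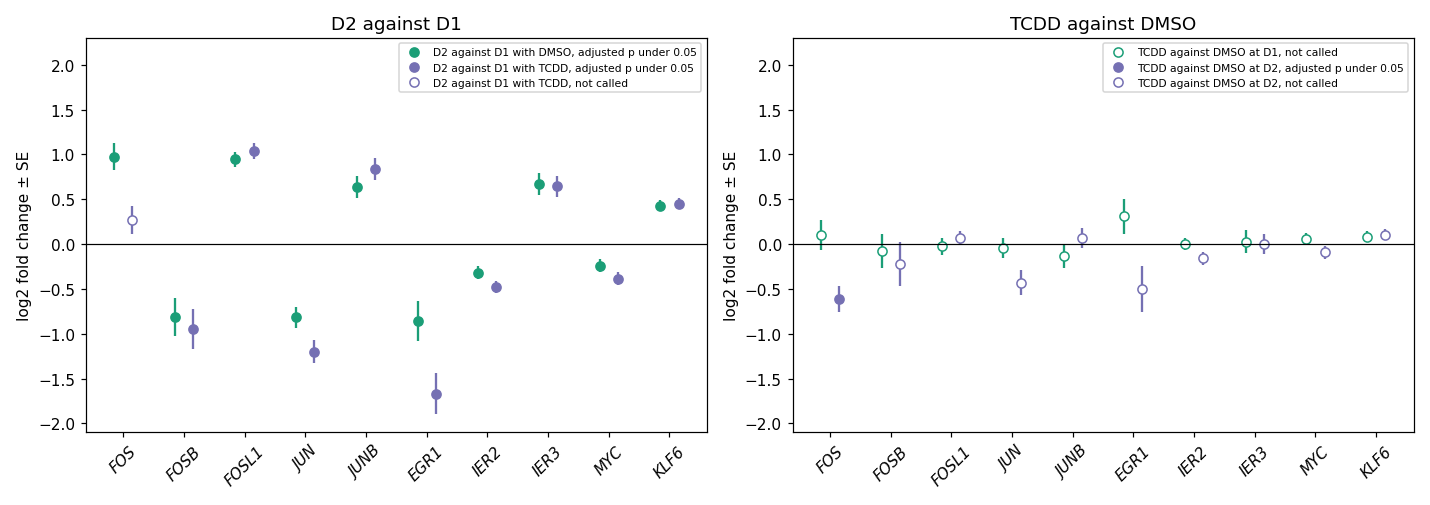
Log2 fold change ± SE of each member for D2 against D1 (left) and TCDD against DMSO (right); filled points have an edgeR adjusted p below 0.05 and open points do not. In the right panel FOS at D2 (-0.61 ± 0.14) is the only filled point, and the left panel shows 5 members above and 5 below 0.

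At D1, where the AHR response genes stood far above their DMSO level, none of the 10 members was called between TCDD and DMSO. edgeR, DESeq2 and limma-voom each called 0 of 10, where edgeR called 1.2% of all genes, 0.764% higher and 0.434% lower. At an unadjusted edgeR p below 0.05 there were 0 members, against 1798 of all 17268 genes. Log2 fold changes ran from -0.13 ± 0.13 for JUNB to 0.31 ± 0.20 for EGR1, and edgeR adjusted p from 0.6488 to 1. The libraries of the treatments overlapped for 8 members, while JUNB was lower and KLF6 higher in both TCDD libraries. Across all genes 37.5% had no overlap, 18.9% higher and 18.6% lower. For IER2 the log2 fold change was 3.0e-05 with a 95% interval of -0.14 to 0.14, and for MYC it was 0.06 with an interval of -0.09 to 0.21. For FOS and EGR1 the intervals were wider, -0.25 to 0.45 and -0.11 to 0.72. EGR1 was called higher only without TCDD replicate 1 of D1 (0.68, edgeR adjusted p = 0.04793), which leaves the single TCDD library with the highest EGR1 level.

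At D2, 1 of 10 members, FOS, was called, against 2.95% of all genes, 1.41% higher and 1.54% lower. FOS was lower with TCDD, 4.46 and 3.77 CPM (188 and 137 counts) against 6.83 and 5.82 CPM with DMSO (250 and 239 counts), and the groups did not overlap. The level with TCDD was 0.656 of that with DMSO (log2 fold change -0.61 ± 0.14, edgeR adjusted p = 0.02524). DESeq2 did not call it (adjusted p = 0.07843), and the call was lost without DMSO replicate 1 (-0.49, edgeR adjusted p = 0.3152), TCDD replicate 1 (-0.74, edgeR adjusted p = 0.05371) or TCDD replicate 2 (-0.50, edgeR adjusted p = 0.322) of D2. Over all alternatives the adjusted p of FOS ran from 5.826e-05 to 0.322.

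A further 4 members had lower levels in both TCDD libraries than in both DMSO libraries at D2 without being called, namely JUN (-0.43 ± 0.14, edgeR adjusted p = 0.1257), EGR1 (-0.50 ± 0.26, edgeR adjusted p = 0.396), IER2 (-0.16 ± 0.07, edgeR adjusted p = 0.328) and FOSB (-0.22 ± 0.25, edgeR adjusted p = 0.7726). KLF6 was higher in both (0.10 ± 0.06, edgeR adjusted p = 0.461). With no filter on low counts JUN (edgeR adjusted p = 0.01784) and EGR1 (edgeR adjusted p = 0.003714) were called too, and over all alternatives their adjusted p ran to 0.658 and 0.8642. Across all genes 47.7% had no overlap in this comparison, 23.3% lower and 24.4% higher, against 5 and 1 of the 10 members. FOSL1 (0.07 ± 0.08), JUNB (0.07 ± 0.11), IER3 (0.00 ± 0.11) and MYC (-0.09 ± 0.07) overlapped between treatments. The median log2 fold change of the members was -0.12, against 0.00 over all genes tested. Beside these values, 4 of 6 streak markers (T, MIXL1, EOMES and GSC) were called lower with TCDD at D2. So was CER1 (-1.10), 1 of the 2 endoderm markers tested, which was also called lower at D1 (-1.45, edgeR adjusted p = 0.03892). The other, FOXA2, was not called, with means of 5.14 CPM with TCDD and 5.72 CPM with DMSO. Of the 7 stem cell markers 1, SOX2 (0.59), was called higher. NANOG was not called (-0.15), and the sum of the 7 was 5341 to 5439 CPM with TCDD and 5005 to 5086 CPM with DMSO. The fibroblast marker COL1A1 was called higher (0.54), as it was at D1 (0.20, edgeR adjusted p = 0.04682). At D2 the summed level of 14 heat shock genes overlapped, at 12192 and 12792 CPM with TCDD and 11951 and 12426 CPM with DMSO. The part of these in the result was not tested.

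The difference between the TCDD effects (D2 minus D1) was called for 0 of 10 members by edgeR, DESeq2 and limma-voom. Of all genes 0.77% were called, 0.492% higher and 0.278% lower. At an unadjusted edgeR p below 0.05 there were 3 members, against 1810 of all 17268 genes. Those 3 were FOS (-0.71 ± 0.22, edgeR adjusted p = 0.1998), JUN (-0.38 ± 0.18, edgeR adjusted p = 0.459) and EGR1 (-0.81 ± 0.32, edgeR adjusted p = 0.364). With no filter FOS (edgeR adjusted p = 0.0132) and EGR1 (edgeR adjusted p = 0.0001008) were called. Over all alternatives the adjusted p of the difference ran from 0.0132 to 0.5861 for FOS and from 0.0001008 to 0.8879 for EGR1. For EGR1 the difference was called without TCDD replicate 1 of D1 (-1.18, edgeR adjusted p = 0.02121).

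The median spread between the 2 libraries of a group was larger over the 10 members than over all genes tested, but not every member shared in this. The median absolute log2 ratio of library 1 to library 2 over the members was 0.13 and 0.17 with DMSO and 0.17 and 0.17 with TCDD, at D1 and D2 in that order, against 0.08, 0.07, 0.10 and 0.08 over all genes tested. Averaged over the 4 groups, 71.3% of all genes had a spread as large as KLF6 and 53.0% one as large as IER3. Against the 500 genes nearest in level, the median ratios of FOSB (0.15 against 0.23) and IER3 (0.07 against 0.12) were the smaller. Those of all other members were the larger, among them KLF6 (0.08 against 0.06), FOS (0.28 against 0.13) and EGR1 (0.43 against 0.12). EGR1 led, with library 2 above library 1 by 1.52-fold with DMSO and 1.78-fold with TCDD at D1. In these groups only 4.2% and 1.77% of all genes had a log2 ratio as large, and the counting error of the ratio was 0.11 and 0.10 (SD, log2) for log2 ratios of -0.60 and -0.83. Its biological coefficient of variation in the fit was 13.6%, and 0.753% of all genes had one as large.

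FOS was higher in library 1 than in library 2 in all 4 groups, by log2 ratios of 0.32 and 0.23 with DMSO and 0.39 and 0.24 with TCDD at D1 and D2, against counting errors of 0.13 to 0.18. JUN also stood higher in library 1 in all 4 groups (0.18 to 0.28, counting errors 0.11 to 0.17). At D1, then, libraries with more EGR1 had less FOS and JUN. The remaining members stood higher in library 1 in 1 to 3 of the groups. The share of all genes with library 1 higher in all 4 groups was not counted, so these sides are a description only. With TCDD at D1, 9 of 10 members were higher in library 1, EGR1 being the exception, while 52.4% of all genes were. IER2 (0.26) and MYC (0.15) in that group differed by more than their counting errors of 0.04. FOSB differed by 0.12 to 0.17 in size in the 4 groups, less than its counting errors of 0.26 to 0.38, and KLF6 by 0.01 to 0.08.

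**Figure D4:**
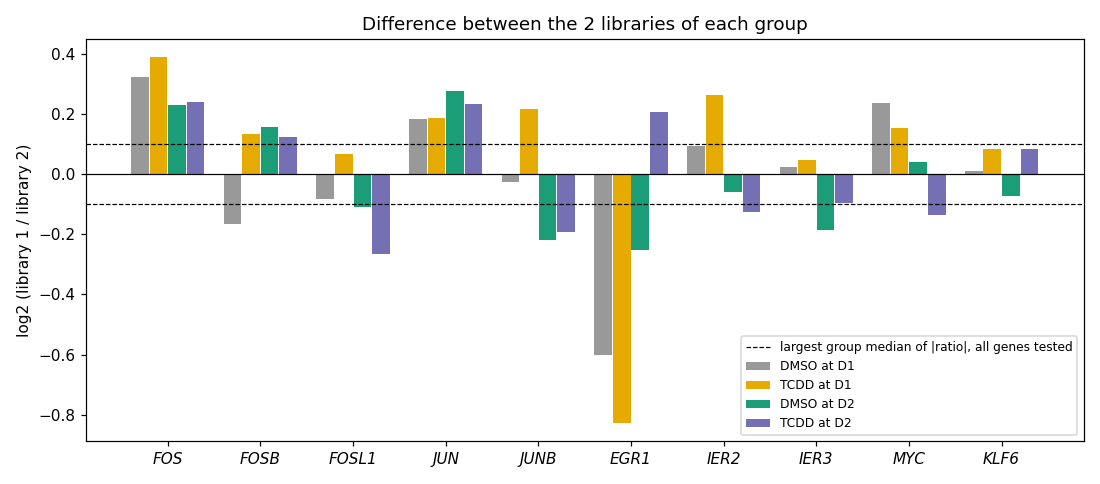
Log2 ratio of library 1 to library 2 within each of the 4 groups for each member (bars); dashed lines mark the largest of the 4 group medians of the absolute ratio over all genes tested (0.10). EGR1 reaches -0.60 and -0.83 at D1, while the FOS and JUN bars point upwards in all 4 groups.

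Of 34 other immediate early genes listed, 32 were tested. At D1, edgeR called 0 with TCDD, with 6 at an unadjusted p below 0.05 (1798 of all 17268 genes), and DESeq2 and limma-voom called 0. With no filter 2 were called, PLK2 and RHOB, 1 in each direction. At D2, 1 rose with TCDD and 2 fell: TRIB1, a pseudokinase that directs protein degradation (log2 fold change 0.34 ± 0.06, edgeR adjusted p = 0.002468), GADD45B, a stress response gene (-0.39 ± 0.09, edgeR adjusted p = 0.01771), and DUSP5, a phosphatase of nuclear ERK (-0.49 ± 0.12, edgeR adjusted p = 0.03304). By DESeq2 1 of the 32 was higher and 0 were lower, and with edgeR's robust shrinkage 1 was higher and 1 lower, without DUSP5. With no filter 2 were higher and 3 lower, CTGF and KLF4 being added. The median log2 fold change was -0.11, with 22 of 32 negative, against 0.00 and 8584 of 17268 over all genes tested, of which 2.95% were called. From D1 to D2 with DMSO, 8 rose, 14 fell and 10 did not pass, where 32.5% of all genes rose and 30.7% fell. CTGF (-2.26) and CYR61 (-1.54), matricellular genes driven by YAP and SRF, and the kinase SGK1 (-2.46) fell, and the RNA-binding ZFP36L2 (1.34), RHOB (1.19) and KLF10 (0.63) rose.

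Among regulators of these genes, 2 of 12 SRF, ternary complex and CREB genes fell with TCDD at D2, the ternary complex factors ELK4 (-0.25 ± 0.05, edgeR adjusted p = 0.005998) and ELK3 (-0.39 ± 0.09, edgeR adjusted p = 0.01684), where 1.54% of all genes fell. At D1 edgeR called 0 of the 12, with 5 at an unadjusted p below 0.05 (1798 of all 17268 genes), and DESeq2 and limma-voom called 0, while with no filter ELK3 was called lower. From D1 to D2 with DMSO, where 63.2% of all genes were called, 6 rose, CREM (0.79) among them, and 3 fell, with the SRF coactivator MKL1 lower (-0.40) and its paralog MKL2 higher (0.31). Of 13 kinases upstream, a smaller share was called than over all genes: 2 rose, MAP2K2 (0.38) and MAP2K1 (0.23), and 2 fell, RPS6KA5 (-0.83), which phosphorylates CREB and histone H3, and MAPK3 (-0.18). None of the 13 was called with TCDD by edgeR, DESeq2 or limma-voom. Over all genes edgeR called 1.2% with TCDD at D1 and 2.95% at D2. At an unadjusted edgeR p below 0.05 there were 0 kinases at D1 and 1 at D2, against 1798 and 2437 of all 17268 genes.

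Among partners and paralogs, 12 AP-1 partners, 11 genes of the MYC and MAX network and 9 KLF paralogs were tested. With TCDD, edgeR, DESeq2 and limma-voom called 0 in each list at both times. Over all genes edgeR called 1.2% at D1 and 2.95% at D2. At an unadjusted edgeR p below 0.05 there were 0, 2 and 0 at D1 and 1, 2 and 0 at D2. Over all 17268 genes there were 1798 and 2437. From D1 to D2 with DMSO, where 32.5% of all genes rose and 30.7% fell, 4 of the AP-1 partners rose and 2 fell, with ATF2 higher (0.57) and JDP2, an AP-1 repressor, lower (-0.70). In the MYC network 5 rose and 5 fell: MYCN, the MYC paralog, was lower (-1.36), as was the MYC antagonist MXD4 (-1.86), and MAX, the obligate partner, was higher (0.45). Of the KLF paralogs 6 rose, KLF5 (2.08) among them, and 2 fell, with KLF9 at -1.53. The EGR co-repressors NAB2 (0.67) and NAB1 (-0.36) went in opposite directions.

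Of 14 heat shock genes, a group that also reacts to handling, 6 rose from D1 to D2 with DMSO and 6 fell, where 32.5% of all genes rose and 30.7% fell. HSPA8 (0.70) rose and HSPA1A (-0.76) and HSPA1B (-0.53), near-identical genes whose reads may be shared, fell. At D1, where EGR1 differed most between libraries, the summed level of the 14 was 10156 and 10286 CPM with DMSO and 9899 and 10557 CPM with TCDD. With TCDD, edgeR, DESeq2 and limma-voom called 0 of the 14 at D1, where edgeR called 1.2% of all genes. At an unadjusted edgeR p below 0.05 there were 4, against 1798 of all 17268 genes. With no filter HSPB1 was called higher. At D2 1 fell, HSPE1 (-0.29 ± 0.07, edgeR adjusted p = 0.01775), where 2.95% of all genes were called.

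Genes whose log2 CPM over the 8 libraries was most like that of a member were sought among the 14467 genes whose mean level reached 1 CPM. The libraries share the contrast of D1 and D2, so high correlations were common for members that followed it: 3913 genes reached a Pearson r of 0.9 with FOSL1, 3925 with IER3, 3473 with JUNB, 3433 with KLF6, 2994 with FOSB and 2299 with JUN. FOS, which was high only in DMSO at D2, had 92 such genes, led by SPATA6 (r = 0.98), the JNK gene MAPK9 (0.979) and TSPEAR-AS2 (0.97). The r does not measure the size of a change: group means of MAPK9 ran only from 79.2 to 85.3 CPM, against 3.21 to 6.32 CPM for FOS. MYC had 384, led by GLB1L3 (0.987), EVL (0.984) and MBP (0.977). EGR1 had 800, led by ZNF876P (0.986), CARF (0.984) and TSPAN31 (0.982), and IER2 had 1089, led by MYD88 (0.986). TONSL was closest to FOSL1 (0.999), SLC4A2 to IER3 (0.998), ZNF142 to JUNB (0.998), TRPM3 to KLF6 (0.997), LOC729970 to FOSB (0.995) and KIAA1324 to JUN (0.993). These values describe 8 libraries in 4 groups and carry no test.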

How the data were processed

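RNA of 8 libraries was sequenced, and the authors deposited 1 table of raw read counts per gene symbol and library, not normalised, as the whole-number values show. Per the submitters' processing notes the tools were cutadapt 1.9.1, STAR (no version) and featureCounts 1.5.1, with the build hg19. The sources used here do not give the annotation, the strand setting or the treatment of multiply mapped reads, so counts of overlapping or antisense genes are uncertain.

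Groups came from the sample titles. In R 4.3.3, genes were filtered with edgeR 4.0.16's filterByExpr, which left 17268, and scaled by TMM factors (0.958 to 1.04). All 8 libraries entered 1 quasi-likelihood fit with the 4 group means, and two-sided F tests were adjusted over all genes (Benjamini-Hochberg, 0.05). The SE was derived from the F statistic. For library ratios and correlations, 2 counts were added as the prior before taking log2 CPM, and counting errors are Poisson. limma 3.58.1 (voom) and DESeq2 1.42.0 were alternatives, as were other scalings, no filter, only the groups compared, a replicate block, each library left out and, added after the data were seen, edgeR's robust option. Code was tested on simulated data.

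The 10 members and all gene lists were chosen with earlier results of these data known. Named besides the members were, from each list, up to 3 called genes in each direction with the smallest p, and the 3 genes most correlated with a member. FOSL2 and JUND were added for the levels per exon length, and all markers for the check of cell types. Chi-square statistics per gene between replicates ran from 3.21 to 6.59, more than sampling noise gives, so no pair was treated as a single library deposited again. This does not show that they came from separate cultures.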

Additional observations from a re-analysis of the deposited data

How the results depend on the processing

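FOSB had only 26 to 65 counts a library, and its counting errors of 0.26 to 0.38 (log2) exceeded its library ratios in every group. Of 389 values for single members under settings other than leaving out a library, 374 kept direction and call, 8 turned sign without being called, 2 lost the call and 5 gained it; with a library left out these were 363, 28, 6 and 3 of 400. The cause was not tested.

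The sign turns without a left-out library were IER2 with TCDD at D1 (-0.0021 with RLE factors, -0.0037 with no filter, -0.0032 with DESeq2, -0.0038 with limma-voom, -0.0010 with only the groups compared, -0.0015 with the replicate block), and with no composition scaling IER3 with TCDD at D2 (-0.016) and the difference of TCDD effects for KLF6 (-0.00048). Leaving out libraries, TCDD effects at D1 ran from -0.13 to 0.27 for FOS, -0.17 to 0.0043 for FOSB, -0.065 to 0.016 for FOSL1, -0.15 to 0.048 for JUN, -0.15 to 0.68 for EGR1, -0.14 to 0.12 for IER2, -0.00044 to 0.046 for IER3 and -0.059 to 0.18 for MYC. At D2 they ran from -0.064 to 0.20 for FOSL1, -0.035 to 0.19 for JUNB and -0.085 to 0.10 for IER3. Differences of effects ran from -0.045 to 0.23 for FOSL1, -0.11 to 0.078 for IER3 and -0.020 to 0.067 for KLF6.

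With no filter beyond 1 count, 505, 908 and 468 genes were called for TCDD at D1, at D2 and for their difference, against 207, 509 and 133, and 0, 3 and 2 members: JUN (adjusted p = 0.01784) and EGR1 (0.003714) joined FOS at D2, and FOS (0.0132) and EGR1 (0.0001008) had the difference called. Only the groups compared gave 97 genes at D1. DESeq2 called 0 members at D2. Without single libraries the counts ran from 80 to 265 genes and 0 to 1 member at D1, 198 to 648 and 0 to 1 at D2, and 29 to 275 and 0 to 1 for the difference. The lowest came without DMSO replicate 1 of D1 (80) and of D2 (198 and 29), and 246 and 221 at D2 without DMSO replicate 2 and TCDD replicate 2. With no composition scaling, D2 against D1 gave 4381 higher and 6419 lower genes with DMSO, against 5617 and 5296, and 4183 and 6996 with TCDD, against 5709 and 5560, with medians of all genes of -0.078 and -0.11, while the members kept 5 higher and 5 lower, and 4 and 5.

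Libraries shared replicate numbers, and their deviations over all 17268 genes tested correlated by 0.11 between treatments at D1 and 0.047 at D2. Low-count genes, whose deviations carry much counting error, weaken such a correlation. It therefore cannot decide whether the numbers pair the samples, and the main fit did not pair them. The replicate block called 2 members at D2, adding JUN (adjusted p = 0.04279), and called ELK3 lower at D1, with 225, 515 and 159 genes for TCDD at D1, D2 and the difference.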
